A study of Mus musculus with 24 samples.

Results

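The genes described here encode the proteins of the mitochondrial ribosome, in bone-marrow-derived macrophages. They were taken by symbol, as every gene named Mrpl or Mrps followed by a number and at most 1 letter, which gave 76 genes among the 23337 gene symbols of the count tables. Of the 76, 49 belong to the large subunit and 26 to the small subunit, counting Mrps18a and Mrps30 with the large subunit, where their proteins sit in the assembled particle. Mrps36 carries the name but is known as a subunit of the 2-oxoglutarate dehydrogenase complex. By textbook assignment 46 of the proteins have a counterpart in the bacterial ribosome and 29 are specific to mitochondria. All 76 symbols matched mouse RefSeq records.

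The KO cultures came from mice labelled Apobec1 -/-, which lack a functional copy of the enzyme that deaminates cytidine to uridine in RNA. The WT cultures came from wild-type mice, littermates or age-matched. All mice were C57BL/6J aged 6 to 12 weeks, and M-CSF at 20 ng/mL turned their marrow precursors into macrophages over 7 days. There were 6 KO and 6 WT cultures, each with 1 ribosome footprint library (fragments of mRNA protected by ribosomes) and 1 total RNA library, 24 libraries in all. The labels place KO5, KO6, WT5 and WT6 in batch 3, KO2, KO3, KO4 and WT4 in batch 2, and KO1, WT1, WT2 and WT3 in batch 1, without saying what a batch shares. The sources used here do not give the part of Apobec1 that the allele removes. Whether every culture had an animal to itself is not stated, so p-values reflect only the spread among cultures, which may be technical. The study asked how functional APOBEC1 affects translation.

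The mitochondrial ribosome translates the few mRNAs of the mitochondrial genome, which encode core subunits of the respiratory chain and ATP synthase. Its RNAs are made inside the organelle, but all of its proteins are encoded in the nucleus, translated on cytosolic ribosomes and imported. Footprints on the genes described here therefore report the work of cytosolic ribosomes making parts of mitochondrial ones. The small subunit binds the mRNA and decodes it, and the large subunit joins amino acids and holds the exit tunnel.

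Library depth, culture identity and batch bear on every value. Gene counts were 5077478 to 12059361 per total RNA library and 29561 to 3714912 per footprint library. Batch 3 had the shallowest footprint libraries, 223504 in KO5, 90773 in KO6, 218074 in WT5 and 29561 in WT6. In WT6, 27 of the 76 genes had no footprint, and the limit that a count of 0 allows (3 counts) was 82.2 CPM (counts per 1000000 counts, scaled by the trimmed mean of M-values), against 32.5 CPM in KO6, 14.0 in KO5 and 14.1 in WT5. Such limits and the binomial intervals below cover counting error only. Apobec1 itself had 605 to 1278 CPM of total RNA in KO cultures, against 313 to 475 CPM in WT cultures. Its footprints were 0 to 24.9 CPM in KO cultures, against 61.0 to 105 CPM in WT cultures. The RNA was thus higher and the footprints lower in KO cultures, with no overlap in either. All 11 macrophage markers were detected in every batch, with summed RNA of 17140 to 26932 CPM in batch 3, 32023 to 52039 CPM in batch 2 and 25517 to 32747 CPM in batch 1. Batch 3 libraries held 172 to 386 counts of Xist and 1 or 2 counts of Y-linked genes, whereas the libraries of batches 1 and 2 held 2 to 11 counts of Xist and 973 to 3572 of Y-linked genes. Batch, sex-linked RNA and marker levels cannot be told apart here.

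As a group the 76 genes took a small share of the counts in batches 1 and 2 and a larger one in batch 3. In total RNA the share was 0.209 ± 0.0426% in KO cultures and 0.218 ± 0.0428% in WT cultures (SD, n = 6 each). By batch it was 0.265 ± 0.0254% in batch 3, 0.183 ± 0.0135% in batch 2 and 0.192 ± 0.00209% in batch 1 (SD, n = 4 each). The 4 libraries of batch 3 lay between 0.241% and 0.293%, above all 8 others, which lay between 0.171% and 0.197%. In footprints the share was 0.255 ± 0.0456% in KO cultures and 0.270 ± 0.0539% in WT cultures. It was 0.325 ± 0.0206% in batch 3, 0.232 ± 0.0174% in batch 2 and 0.231 ± 0.00741% in batch 1. The 95% exact Clopper-Pearson interval was 0.278% to 0.415% in WT6, the shallowest library, and its lower end was still above the highest share of batches 1 and 2, 0.254% in WT4.

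**Figure D1:**
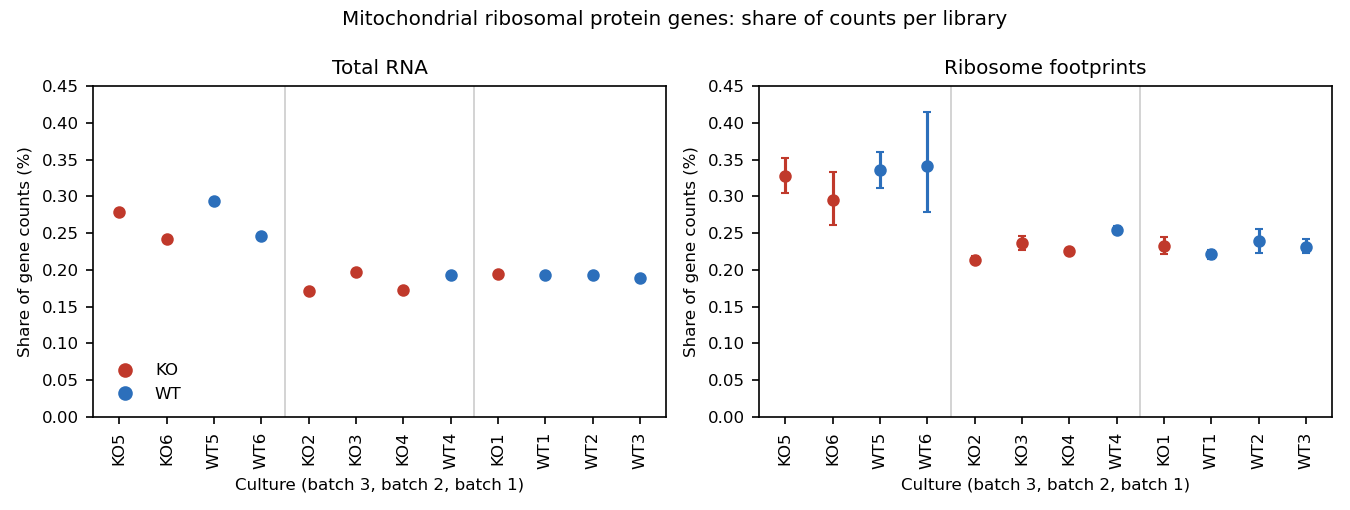
Share of gene counts (%, y axis) taken by the 76 mitochondrial ribosomal protein genes in each culture (x axis), in total RNA and in footprints. Points are single libraries, KO in red and WT in blue, with 95% exact Clopper-Pearson intervals as bars. The 4 cultures of batch 3 lie above the other 8 in both panels, between 0.241% and 0.293% in total RNA and between 0.295% and 0.342% in footprints.

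All 76 genes had total RNA counts in every library, 30 to 893 counts each, and 49 had footprints in every library, with 0 to 420 counts. No transcript lengths were at hand, so the order of genes below is an order of reads and not of molecules. Mrpl33, a small large-subunit protein kept from bacteria, drew the most reads, with 69.0 ± 21.4 CPM of total RNA in KO cultures and 83.8 ± 19.1 CPM in WT cultures. Mrpl18, which binds 5S rRNA in bacteria and a mitochondrial tRNA in the mammalian particle, followed with 59.4 ± 15.8 CPM in KO and 62.5 ± 17.9 CPM in WT cultures. Mrpl24, Mrpl28, Mrpl20 and Mrps14 came next, at 49.5 to 54.4 CPM in KO cultures and 55.6 to 58.3 CPM in WT cultures. These neighbours lay within their own spread of one another. At the other end, Mrpl47 had 7.96 ± 1.66 CPM in KO and 7.79 ± 2.85 CPM in WT cultures, and Mrpl52, Mrpl55, Mrpl22, Mrpl38 and Mrps31 had 9.92 to 12.7 CPM in KO and 9.70 to 12.4 CPM in WT cultures. The mean total RNA of the 76 genes thus ran from 7.87 to 76.4 CPM over the 12 cultures.

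Many of these genes sit close to others. In the RefSeq annotation of GRCm38.p6, 18 of the 76 overlap another gene that was counted, among them Mrpl18 with Tcp1, Mrpl24 with Rrnad1, Mrps6 with Slc5a3, Mrps2 with 1700007K13Rik and Mrps7 with Gga3 and Mif4gd. Whether counting used strand was not given in the sources used here, so reads of such pairs may have been dropped or shared, and their values are uncertain. RefSeq also lists 6 pseudogenes of these genes, of Mrpl23, Mrpl27, Mrpl48 and Mrps36, and levels of those 4 carry the same doubt. The 18 overlapping genes and the 58 others had nearly the same median KO over WT difference in total RNA, -0.06 and -0.07 on the log2 scale.

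Promoters of 67 of the 76 genes were found in RefSeq (GRCm38.p6). The 250 bases before the transcription start were searched on both strands for motifs of factors known to act on nuclear genes of mitochondrial function. The ETS core CCGGAAG, bound by GABP (NRF2) and its relatives, occurred before 17 of the 67 genes (25.4%), against 10.2% of 17492 protein-coding genes. The full NRF1 palindrome, which is its shorter form GCGCATGC followed by GC, occurred before 3 genes (4.48%), Mrpl9, Mrpl32 and Mrpl39, against 1.21% of coding genes. The shorter form, which the full one contains, occurred before 8 (11.9%), against 3.32%. The YY1 core AAGATGGC occurred before 4 (5.97%), against 1.77%. By contrast CACGTG (7.46% against 7.61%), GGGCGG (47.8% against 45.8%) and CCAAT (37.3% against 39.5%) were about as frequent as in other promoters, and TATAAA occurred before 7.46%, against 13.7%. The promoters of the 67 genes had a median GC content of 58.4% and 17 CpG, against 55.6% and 10 over all coding promoters, and a motif rich in CG may follow that composition, which was not tested. A match describes letters only and does not show binding.

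The 4 promoters below stand for these patterns, with the ETS, NRF1 or YY1 matches in capitals, each 250 bases 5′ to 3′ on the strand of its gene. Mrpl51 is shown as an ETS promoter of a gene among the largest batch differences, Mrpl32 for its several NRF1 matches, Mrpl22 for having both kinds, and Mrpl12 as the gene with the largest batch difference in RNA and no such match.
Mrpl51 (chr6:125191950-125192199, + strand): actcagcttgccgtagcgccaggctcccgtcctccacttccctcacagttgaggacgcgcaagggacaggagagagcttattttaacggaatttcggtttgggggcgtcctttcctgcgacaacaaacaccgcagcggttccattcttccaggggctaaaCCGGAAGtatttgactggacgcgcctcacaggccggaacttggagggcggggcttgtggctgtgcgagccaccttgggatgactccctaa
Mrpl32 (chr13:14613038-14613287, - strand): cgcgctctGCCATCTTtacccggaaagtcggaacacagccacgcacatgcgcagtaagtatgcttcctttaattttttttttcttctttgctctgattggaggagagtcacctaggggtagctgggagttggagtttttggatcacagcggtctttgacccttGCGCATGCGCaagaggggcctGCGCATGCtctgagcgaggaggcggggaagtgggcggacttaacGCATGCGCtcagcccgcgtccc
Mrpl22 (chr11:58171414-58171663, + strand): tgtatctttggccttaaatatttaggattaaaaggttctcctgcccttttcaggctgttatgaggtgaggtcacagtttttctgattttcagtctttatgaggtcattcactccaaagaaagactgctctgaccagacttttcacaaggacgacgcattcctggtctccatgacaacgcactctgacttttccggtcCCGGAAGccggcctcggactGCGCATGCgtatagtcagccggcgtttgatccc
Mrpl12 (chr11:120484387-120484636, + strand): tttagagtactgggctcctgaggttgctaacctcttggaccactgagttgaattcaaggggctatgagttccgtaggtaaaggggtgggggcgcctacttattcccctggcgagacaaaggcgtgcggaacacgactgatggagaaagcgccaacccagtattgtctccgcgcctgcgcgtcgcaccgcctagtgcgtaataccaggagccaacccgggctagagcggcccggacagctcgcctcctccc

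Loss of functional APOBEC1 went with no called change in the RNA of any mitochondrial ribosomal protein gene. With edgeR's quasi-likelihood test and batch as a term, 0 of 76 passed an adjusted p of 0.05 for KO over WT, where the background was 0.0183% of the 10942 genes tested, 0.00914% higher and 0.00914% lower, and 2 of 76 had an unadjusted p under 0.05 (4.68% of all genes). DESeq2 and limma also called 0. The estimates were small and mostly below 0, with 66 of 76 lower and a median of -0.07 on the log2 scale, a fold of 0.952, against -0.00 over all genes. The standard error of a single gene was 0.08 to 0.17. Large and small subunit genes did not separate, with medians of -0.08 and -0.05, nor did genes with a bacterial counterpart and mitochondria-specific genes, at -0.07 and -0.08.

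Mrpl12, which forms the stalk that recruits translation factors and is also known to bind the mitochondrial RNA polymerase, had the lowest p. Its RNA was 20.9, 33.9, 38.5, 31.9, 49.5 and 43.9 CPM in KO cultures 1 to 6, against 20.9, 27.1, 26.9, 48.4, 55.9 and 47.4 CPM in WT cultures 1 to 6. The groups overlapped over most of their range. The difference was -0.28 ± 0.10 (log2, SE; unadjusted p = 0.0183, edgeR adjusted p = 0.859). Mrpl41 at -0.25 ± 0.11 and Mrps7 at -0.16 ± 0.08 followed, with Mrps15, Mrpl40 and Mrps18a between -0.14 and -0.17, all at an adjusted p of 0.859.

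The lean towards lower RNA did not hold in each batch. The median KO minus WT difference of the 76 genes was -0.08 in batch 3, -0.18 in batch 2 and 0.04 in batch 1, with 58, 61 and 31 genes lower in KO. In batch 2 a single WT culture, WT4, stood against 3 KO cultures. Summed neutrophil markers were 71.8, 111 and 121 CPM in KO2, KO3 and KO4, against 475 CPM in WT4. Mmp8 made up 227 CPM of that sum in WT4, against 11.2 to 28.4 CPM in those KO cultures. Itgax was 46.8 to 73.1 CPM against 9.44 CPM. Macrophage markers went both ways. Lyz2 was 16286 to 21821 CPM against 34783 CPM, and Emr1 was 3854 to 4408 CPM against 6534 CPM. By contrast Mpeg1 was 3475 to 4711 CPM against 2749 CPM, and Cd68 was 388 to 479 CPM against 303 CPM. The part of these markers in this contrast was not tested. Among the 4 cultures with at least 1000000 footprint counts, where the contrast again rests on WT4 against KO2 and KO4, edgeR called 9 of the genes lower in KO in total RNA, Mrpl12 (-0.55) and Mrps7 (-0.41) among them, and the median was -0.21. Those 9 were 11.8% of the 76, in a fit that called 2740 of 11063 genes (24.8%). Other lists differed in this. Of 74 nuclear genes of oxidative phosphorylation 73 were lower, with a median of -0.16, and of 78 cytosolic ribosomal protein genes 76 were lower, with a median of -0.15, none of either called. The medians were 0.01 over 15 mitochondrial translation factors (7 lower), -0.01 over 19 tRNA synthetases (10 lower), 0.02 over 23 assembly genes (10 lower) and 0.01 over 7 genes of mitochondrial DNA transcription (3 lower). Over 7 mitochondrial ribosome genes with other names it was -0.10 (6 lower).

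Footprints gave the same count. None of 74 genes passed the test (background 0.0832% of 7208 genes), since Mrps11 and Mrps12 reached the filter on CPM in too few footprint libraries to be tested, and 1 had an unadjusted p under 0.05 (8.52% of all genes). DESeq2 and limma also called 0. Of the 74, 60 were lower in KO, with a median of -0.14 (0.01 over all genes). Within batches the median was 0.11 in batch 3, -0.25 in batch 2 and 0.05 in batch 1, against 0.24, -0.01 and 0.01 over all genes, and 34, 69 and 32 of the 76 were lower. Without WT4 the median was -0.00, and without KO1 the test called 1 gene, the share over all genes not being given here. Among the deep cultures 7 of 76 genes (9.21%) were called lower, Mrps36 (-0.83), Mrpl49 (-0.79) and Mrpl52 (-0.59) among them, in a fit that called 14.5% of genes.

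The lowest p in footprints belonged to Mrpl43, a mitochondria-specific large subunit protein. It had 14.9, 19.3, 22.4, 26.3, 32.6 and 21.7 CPM of footprints in KO cultures 1 to 6, against 27.0, 36.3, 12.6, 33.2, 51.6 and 0 CPM in WT cultures 1 to 6. The groups overlapped, and the count of 0 in WT6 cannot be ranked, since it allows up to 82.2 CPM. The difference was -0.57 ± 0.26 (unadjusted p = 0.037, edgeR adjusted p = 0.544). Mrps36 at -0.54 ± 0.27 and Mrpl52 at -0.42 ± 0.21 also missed the threshold, as did Mrps24 (-0.52), Mrpl49 (-0.53) and Mrpl28 (-0.34).

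Mrps16, a small subunit protein in which human disease variants are known, was the single gene of the 74 whose KO and WT footprint values did not overlap (background 0.305%). It had 24.9, 18.1, 25.6, 24.6, 9.32 and 21.7 CPM in KO cultures 1 to 6, against 31.7, 36.3, 27.2, 26.7, 32.9 and 27.4 CPM in WT cultures 1 to 6. Every KO culture lay below every WT culture, and the gap between the nearest of them was narrow, from 25.6 CPM in KO3 to 26.7 CPM in WT4. The value of WT6 rests on 1 footprint and those of KO5 and KO6 on 2 each. The edgeR estimate was -0.36 ± 0.24 (adjusted p = 0.774), with within-batch differences of -0.99 in batch 3, -0.23 in batch 2 and -0.32 in batch 1. In total RNA Mrps16 averaged 20.9 ± 2.07 CPM in KO cultures and 20.6 ± 3.83 CPM in WT cultures.

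Translational efficiency, the change in footprints beyond that in RNA, was fitted as a genotype by library kind term in 1 model of 24 libraries. No gene of 74 passed (background 0.0139%), 0 had an unadjusted p under 0.05 (2.51% of all genes), and DESeq2 and limma called 0. The median was -0.09 (-0.00 over all genes), and 51 of 74 were lower. It turned to 0.06 without WT4 and to 0.08 without batch 2. Mrpl49 (-0.54), Mrpl46 (-0.45), Mrpl43 (-0.45), Mrps24 (-0.46), Mrps36 (-0.45) and Mrpl24 (-0.29) had the lowest p, all with an adjusted p of 1.00. Column headers of the authors' deposited DESeq2 tables do not say whether RNA, footprints or efficiency was compared. In the authors' deposited table over all genes, 0 of the 76 passed, where 1 of 19437 genes did. There 2 of the 76 had an unadjusted p under 0.05, and the share over all genes is not given here. In the authors' deposited table over the top 25 percent of genes, 0 of 61 passed, where 1 of 5600 genes did. The lowest DESeq2 adjusted p of the 61 was 0.561, for Mrpl49.

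**Figure D2:**
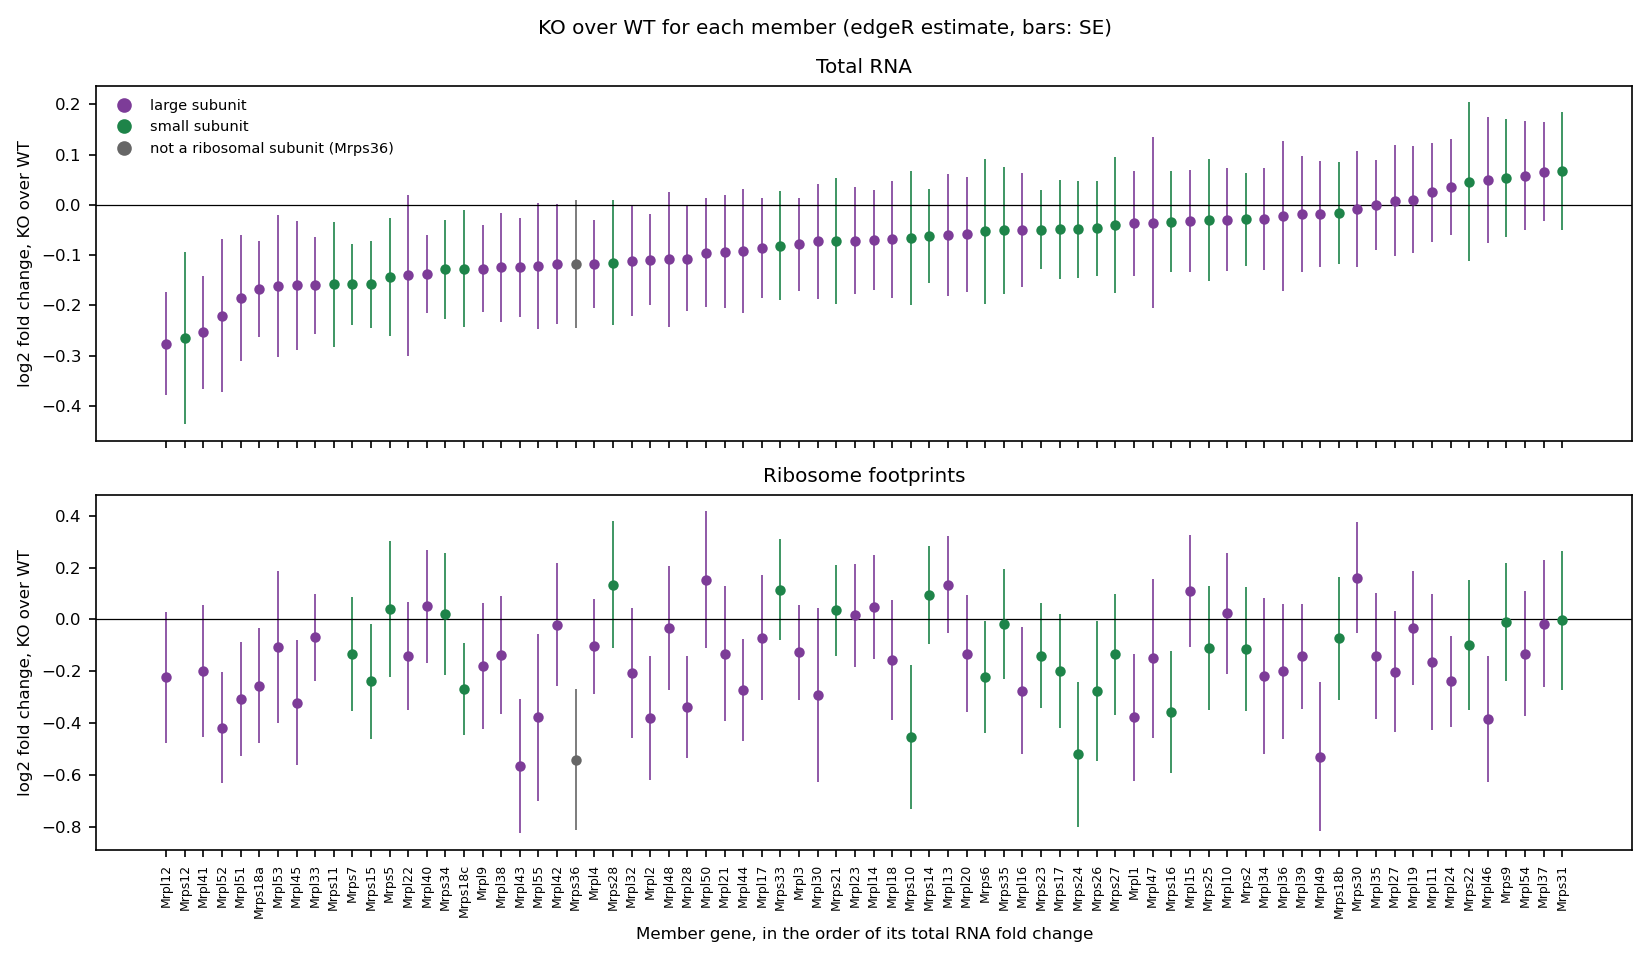
Log2 fold change of KO over WT (y axis) for each gene (x axis, in the order of its total RNA fold change), in total RNA and in footprints. Points are edgeR estimates with the SE as bars, coloured by subunit. None passed an adjusted p of 0.05, and 66 of 76 points in total RNA and 60 of 74 in footprints lie below 0.

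The 7 genes of the mitochondrial ribosome with other names (Dap3, Chchd1 and Mrp63 among them), 15 translation factors, 19 tRNA synthetases, 23 genes of ribosome assembly and rRNA handling and 7 of mitochondrial DNA transcription were looked at with the same tests. None was called for KO over WT in RNA, or among the 46 tested in footprints and efficiency. Dap3, a GTP-binding small subunit protein, had the lowest p among the otherwise named genes in footprints, at -0.51 ± 0.21 (edgeR adjusted p = 0.512), and Cars2, the mitochondrial cysteinyl-tRNA synthetase, the lowest among the synthetases, at -0.82 ± 0.30 (adjusted p = 0.399). In total RNA the lowest p in each list fell to Chchd1 (-0.19), Guf1 (0.24), Cars2 (-0.40), Mpv17l2 (-0.25) and Polrmt (0.31), none past the threshold.

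Between batches many of these genes differed. In batch 3 over batch 1, 50 of the 76 genes were called higher in total RNA and 0 lower, where the background was 45.3% of genes called, 23% higher and 22.3% lower. Of the 76, 72 had a positive estimate, and the median was 0.41 on the log2 scale, a fold of 1.33, against 0.01 over all genes. In batch 3 over batch 2, 43 were called higher and 3 lower (background 49.2%, with 24.7% higher and 24.5% lower), and the median was 0.35. In batch 2 over batch 1, 8 were called higher and 5 lower (background 23.5%, with 12.7% higher and 10.8% lower), and the median was 0.02. These contrasts share libraries and are not independent. In 29 of 76 genes (38.2%) all 4 batch 3 cultures lay above the other 8 in log2 CPM, against 13.1% of all genes, and in 0 genes did they all lie below, against 13.1%. The KO6 and WT6 footprint libraries were shallow but their RNA libraries were not. Leaving both cultures out, a choice made after seeing the data, gave a median of 0.52 for batch 3 over batch 1. With 1 culture left out at a time, this median ran from 0.34 (without WT5) to 0.48 (without WT6).

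Mrpl12 showed the largest batch difference. Its RNA was 43.9 to 55.9 CPM in batch 3, 31.9 to 48.4 CPM in batch 2 and 20.9 to 27.1 CPM in batch 1. Batches 3 and 1 did not overlap, whereas batch 2 overlapped batch 3, WT4 (48.4 CPM) lying above KO6 and WT6. Batch 3 over batch 1 gave 1.11 ± 0.12, a fold of 2.16 (edgeR adjusted p = 1.01e-05), and batch 2 over batch 1 gave 0.81 ± 0.13 (adjusted p = 0.00109). Its footprints were less clear, with 35.3 ± 19.8 CPM in batch 3, 27.1 ± 6.46 CPM in batch 2 and 23.8 ± 8.59 CPM in batch 1 (SD, n = 4 each). The promoter printed above for Mrpl12 held none of the NRF1, ETS or YY1 matches.

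Mrps6, a small subunit protein with a bacterial counterpart, had 26.0 ± 1.80 CPM of RNA in batch 3, 15.7 ± 3.61 CPM in batch 2 and 12.8 ± 1.93 CPM in batch 1. All 4 batch 3 values, 23.4 to 27.3 CPM, were above the rest, and batch 3 over batch 1 was 1.03 ± 0.16 (adjusted p = 0.000208). Mrps6 overlaps Slc5a3. Over the 18 overlapping genes 13 were called higher (median 0.45), and over the 58 others 37 (median 0.40). Mrps10, which lies in the head of the small subunit, gave 0.99 ± 0.15, Mrpl51 0.95 ± 0.14 and Mrps28 0.82 ± 0.14. Mrpl51 lies on chromosome 6, 2.59 Mb from Apobec1, and in total RNA it averaged 46.1 ± 18.1 CPM in KO cultures and 50.9 ± 19.0 CPM in WT cultures. None of the 7 genes on that chromosome (Mrpl19, Mrpl35, Mrpl51, Mrpl53, Mrps25, Mrps33 and Mrps35) was called for KO over WT, with RNA estimates of -0.19 to 0.01. The smallest called differences were Mrpl9 (0.27), Mrps17, Mrpl40, Mrpl4 and Mrpl27, up to 0.33.

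In batch 3 over batch 2, Mrps28 stood at 1.06 ± 0.15, Mrpl20 at 0.95 ± 0.13, Mrps14 at 0.84 ± 0.11, Mrpl51 at 0.83 ± 0.15 and Mrpl33 at 0.82 ± 0.11. Mrpl20, Mrps14 and Mrpl33 were also lower in batch 2 than in batch 1, by -0.44, -0.38 and -0.45, together with Mrps23 (-0.37) and Mrpl24 (-0.34). Mrpl33, for example, had 97.8 ± 15.6 CPM in batch 3, 53.9 ± 6.76 CPM in batch 2 and 77.4 ± 3.97 CPM in batch 1. The 4 batch 2 values of Mrpl33, 46.6 to 63.0 CPM, were all below the other 8.

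Mrpl52, Mrpl45 and Mrps15 went the other way and were called higher in batch 2 than in batches 1 and 3. Mrpl52, a mitochondria-specific large subunit protein, had 7.82 ± 1.29 CPM in batch 3, 13.7 ± 3.5 CPM in batch 2 and 7.94 ± 0.697 CPM in batch 1. Batch 3 over batch 2 was -0.86 ± 0.18 (edgeR adjusted p = 0.00138) and batch 2 over batch 1 was 0.90 ± 0.18 (adjusted p = 0.00446). WT4 held the highest value of Mrpl52, 18.4 CPM, and without it batch 2 over batch 1 was 0.65 (adjusted p = 0.0628). Mrpl45, which sits near the exit tunnel and holds the ribosome to the inner membrane, had 38.1 ± 3.16 CPM in batch 3, 54.6 ± 13.4 CPM in batch 2 and 41.9 ± 6.27 CPM in batch 1. WT4 held 74.1 CPM, against 34.7 to 42.9 CPM in the other WT cultures. Its KO minus WT difference (log2) was -0.62 in batch 2 and 0.35 in batch 1. Batch 2 over batch 1 was 0.45 ± 0.16, close to the threshold (edgeR adjusted p = 0.0491). Mrps15 was 0.73 ± 0.11 and Mrps2 0.58 ± 0.11 higher in batch 2 than in batch 1. Without WT4 the number called in batch 2 over batch 1 fell to 4, against 13 of 76 (17.1%) with it, where 23.5% of all genes were called. The share of all genes called without WT4 is not given here, so the fall cannot be read as particular to these genes.

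**Figure D3:**
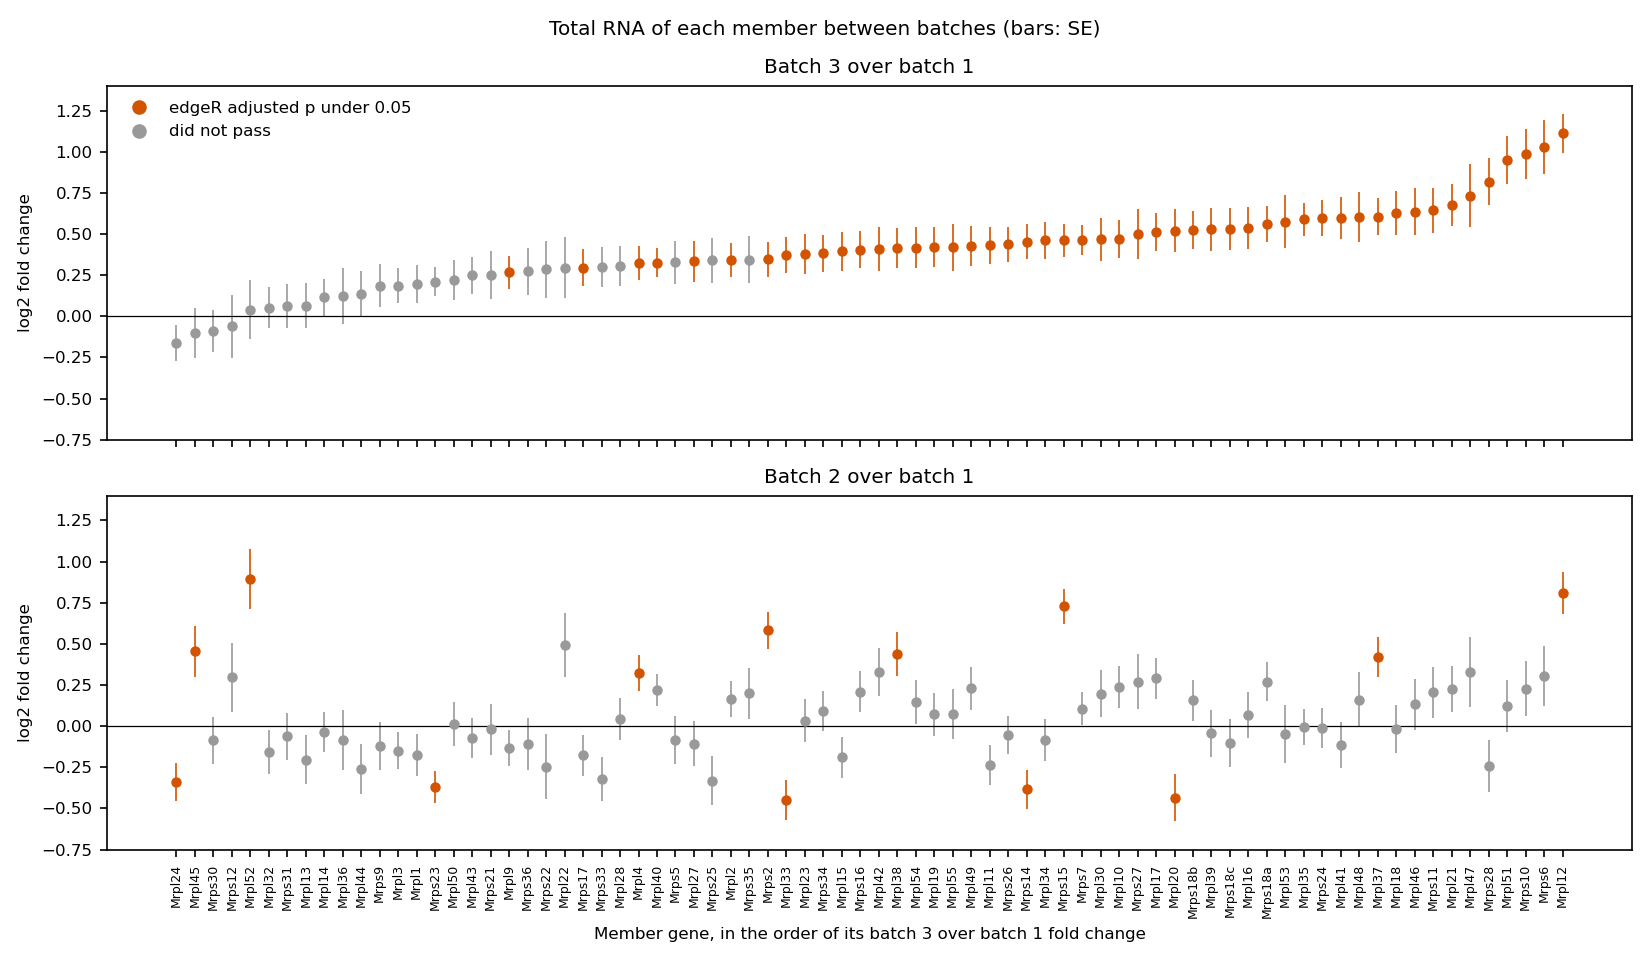
Log2 fold change in total RNA (y axis) of batch 3 over batch 1 and of batch 2 over batch 1 for each of the 76 genes (x axis, in the order of the upper panel). Points are edgeR estimates with the SE as bars, orange where the adjusted p was under 0.05. The upper panel has 50 orange points, all above 0, and the lower has 8 above and 5 below 0.

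Cell markers and other gene groups moved with the batches too. Summed neutrophil markers were 427 to 569 CPM in batch 3, 71.8 to 475 CPM in batch 2 and 14.7 to 21.3 CPM in batch 1 (12 genes, all detected). Not all of them rose. Mmp9 was 1.19 to 3.42 CPM in batch 3 and 6.87 to 10.1 CPM in batch 1. Cxcr2 was 1.04 to 4.80 CPM in batch 3 and 2.25 to 4.30 CPM in batch 1. Mmp8 made up 227 CPM of the 475 CPM of WT4, the highest sum of batch 2. Mast cell markers were 40.1 to 68.9 CPM in batch 3 and 1.66 to 12.7 CPM in the other batches, but Kit, which is not specific to mast cells, made up nearly all of that sum (39.6 to 67.4 CPM in batch 3). Cpa3 was at most 1.33 CPM, and Mcpt4 and Tpsb2 of the 5 genes were at 0 throughout. Dendritic markers were 13.8 to 15.6 CPM in batch 3, 11.4 to 81.6 CPM in batch 2 and 96.1 to 153 CPM in batch 1, nearly all of it Itgax (93.7 to 152 CPM in batch 1), which macrophages also express. Csf1r, the M-CSF receptor, had 952 to 1276 CPM in batch 3 and 2695 to 4224 CPM in the other batches. Emr1, Itgam, Mertk, Cd14, Fcgr1, Mpeg1 and Mrc1 were also lowest in batch 3, whereas Cd68, Lyz2 and Cd163 were not set apart that way. Cd68 was 282 to 310 CPM in batch 3 and 231 to 270 CPM in batch 1. Lyz2, the largest part of the macrophage sum, was 11746 to 21596 CPM in batch 3 and 12878 to 16282 CPM in batch 1. Lymphocyte markers summed to at most 8.28 CPM and erythroid ones to at most 0.453 CPM anywhere. The part of these in the batch differences was not tested, and in bulk libraries fewer cells of a type and less RNA per cell cannot be told apart. Nuclear genes of oxidative phosphorylation had much the same batch 3 over batch 1 pattern, with 49 of 74 called higher, 0 lower and a median of 0.45. Cytosolic ribosomal protein genes had 10 of 78 called higher, 5 lower and a median of 0.06. Of 15 mitochondrial translation factors 2 were called higher (Tsfm, 0.43, and Pdf, 0.35), and of the 7 genes of mitochondrial DNA transcription 1 was higher and 2 lower (Polrmt, -0.86, and Polg2, -0.62).

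In footprints, batch 3 over batch 1 had 12 of 74 genes called higher and 0 lower (background 20.8%, with 9.54% higher and 11.2% lower), with a median of 0.52 against -0.03 over all genes. Batch 3 over batch 2 had 9 higher and 1 lower (background 22.5%, with 10.9% higher and 11.7% lower), and batch 2 over batch 1 had 4 higher and 3 lower (background 15.4%, with 8% higher and 7.37% lower). The standard error was 0.25 to 0.71 in batch 3 over batch 1, against 0.09 to 0.19 in total RNA, so many differences of the size seen in RNA could not be detected. Without KO5, the deepest footprint library of batch 3, 6 genes were called in batch 3 over batch 1 and 3 in batch 3 over batch 2. The share of all genes called without KO5 is not given here. All 4 batch 3 cultures lay above the other 8 in 5 of 74 genes (6.76%), Mrpl2, Mrpl4, Mrpl38, Mrps2 and Mrps6, where the background was 4.62%, and in 0 did they all lie below, against 8.62%. The lowest counts of these genes in a footprint library were 2, 3, 3, 1 and 3, in that order.

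Mrps2, a small subunit protein linked to human disease, had the largest footprint difference. Its footprints were 41.9 and 43.4 CPM in KO5 and KO6 and 56.3 and 27.4 CPM in WT5 and WT6 of batch 3, 22.4 to 26.7 CPM in batch 2 and 8.38 to 16.5 CPM in batch 1. The 3 batches did not overlap, although WT6 rests on 1 footprint. Batch 3 over batch 1 gave 2.1 ± 0.40, a fold of 4.29 (edgeR adjusted p = 0.00022), and stayed between 1.88 and 2.18 under the alternatives run for it. Its RNA was 17.3 ± 0.931 CPM in batch 3, 20.3 ± 0.700 CPM in batch 2 and 13.7 ± 1.01 CPM in batch 1, so the RNA was highest in batch 2 and the footprints in batch 3. The change in efficiency was 1.71 ± 0.32 (adjusted p = 0.00822), and Mrps2 was the only one of the 74 called for efficiency in batch 3 over batch 1 (background 1.14%, with 0.625% higher and 0.514% lower). Without KO5, and likewise without WT5, 0 genes were called for efficiency in that contrast. Mrps2 is among the genes that overlap another counted gene.

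The next largest footprint differences of batch 3 over batch 1 were Mrpl53 (1.54 ± 0.45), Mrpl16 (1.49 ± 0.41), Mrpl2 (1.44 ± 0.36) and Mrpl21 (1.34 ± 0.45). Mrpl53, Mrpl2 and Mrpl21 also overlap another counted gene (Ccdc142, Klc4 and Ighmbp2), so their values carry the same doubt. For Mrpl53, Mrpl16 and Mrpl21 the library KO5 stood above every other KO culture, at 46.6, 60.6 and 60.6 CPM. In batch 3 over batch 2 the highest were Mrpl53 (1.73 ± 0.43), Mrps6 (1.55 ± 0.30), Mrpl42 (1.55 ± 0.39), Mrpl2 (1.25 ± 0.34) and Mrpl27 (1.03 ± 0.35). Mrps6 had 82.0 ± 8.59 CPM of footprints in batch 3, 27.3 ± 7.01 CPM in batch 2 and 40.6 ± 6.68 CPM in batch 1, with batch 3 apart from the rest. Its lowest count in a footprint library was 3, so the spread within batch 3 rests partly on few reads. Mrpl52 was the single gene called lower, at -1.24 ± 0.39 (edgeR adjusted p = 0.0206). Without WT4 it was -0.99 (adjusted p = 0.105).

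Mrpl42, a mitochondria-specific protein of the large subunit, had the opposite batch 2 pattern. Its footprints were 21.7 to 82.2 CPM in batch 3, 10.9 to 14.2 CPM in batch 2 and 29.7 to 38.1 CPM in batch 1. The 82.2 CPM of WT6 rests on 3 counts. All 4 batch 2 cultures lay below the other 8, whereas its RNA was 28.0 ± 5.2 CPM in batch 3, 26.0 ± 2.70 CPM in batch 2 and 21.6 ± 2.12 CPM in batch 1. Batch 2 over batch 1 was -1.39 ± 0.26 in footprints (adjusted p = 0.0004) and -1.73 ± 0.27 in efficiency (adjusted p = 0.000121). Mrpl36 (-1.03 ± 0.28) and Mrps27 (-0.74 ± 0.25) were also lower in footprints of batch 2 than of batch 1. Mrps15 (1.20 ± 0.25), Mrps2 (1.18 ± 0.29), Mrpl1 (0.82 ± 0.27) and Mrpl52 (0.73) were higher.

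**Figure D4:**
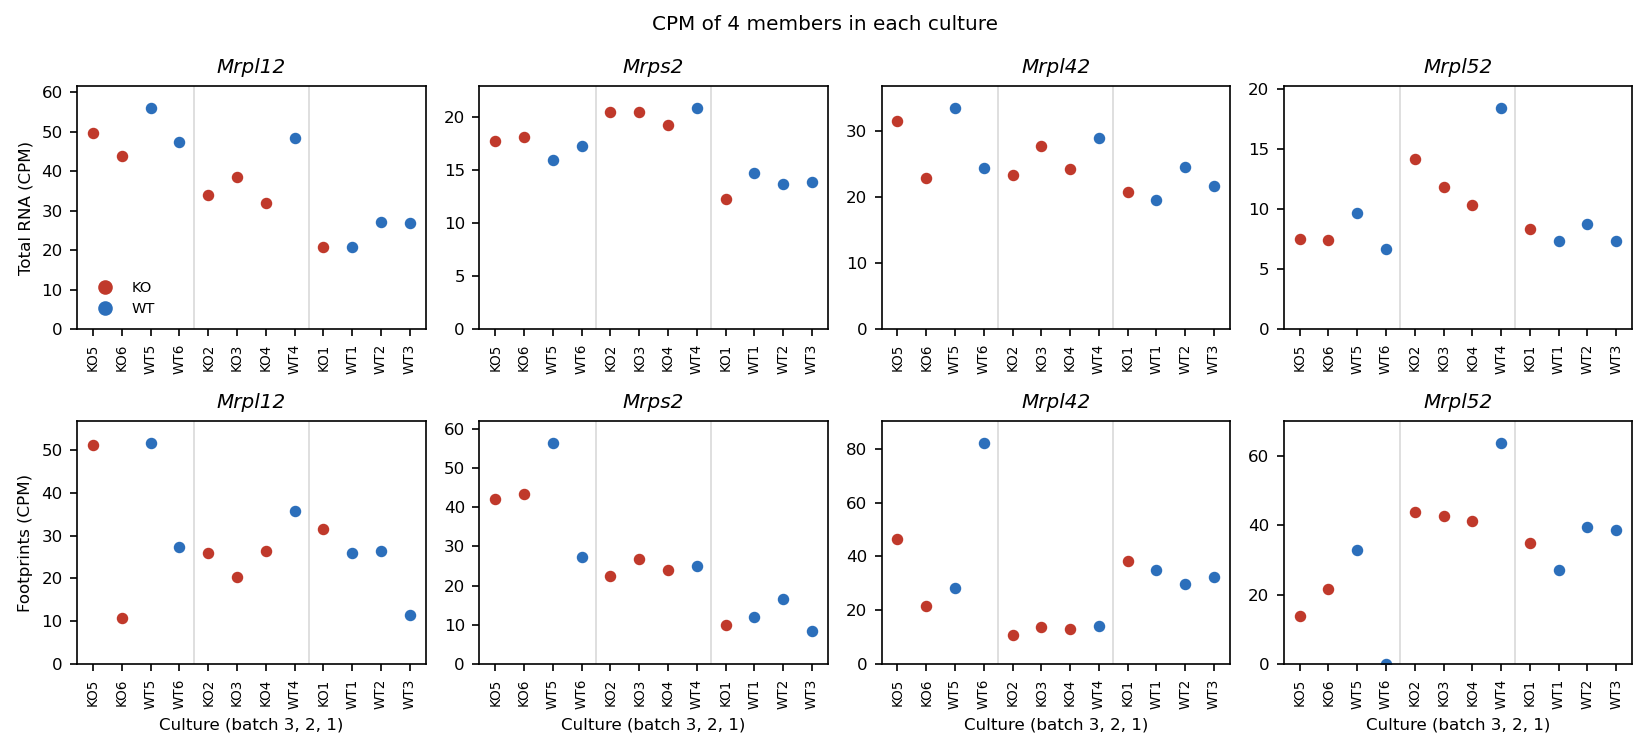
Total RNA (upper row, CPM) and footprints (lower row, CPM) of 4 genes in each culture (x axis, batches 3, 2 and 1 from left to right), KO in red and WT in blue. Each point is 1 library. Mrpl12 RNA and Mrps2 footprints are highest in batch 3, Mrpl42 footprints are lowest in batch 2, and Mrpl52 peaks in batch 2.

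In efficiency, batch 2 over batch 1 had 2 genes higher and 3 lower of 74 (background 16.7%, with 8.26% higher and 8.41% lower), with Mrpl1 at 1.00 ± 0.28 and Mrpl3 at 0.69 ± 0.21 higher and Mrpl42, Mrps27 and Mrpl36 lower. Batch 3 over batch 2 had 4 higher (Mrpl42, Mrps2, Mrpl2 and Mrpl4, up to 1.42) and 2 lower (Mrpl50, -1.74, and Mrpl1, -1.41), where the background was 9.97%, with 4.46% higher and 5.51% lower. The median efficiency change of the 74 genes was 0.08 in batch 3 over batch 1 and 0.04 in batch 2 over batch 1. Cytosolic ribosomal protein genes had a median efficiency change of 0.81 in batch 3 over batch 1, with 31 of 76 called higher and 1 lower.

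Whether KO over WT differed between batches was tested as an interaction. In total RNA 0 of 76 genes were called (background 0.987%), and 5 had an unadjusted p under 0.05 (12.8% of all genes). In footprints 1 of 74 was called (background 2.01%), Mrpl45 (edgeR adjusted p = 0.0209). Its footprints were 55.9 and 75.9 CPM in KO against 51.6 and 82.2 CPM in WT cultures of batch 3, 63.8, 77.9 and 53.2 CPM in KO against 124 CPM in WT4 of batch 2, and 74.6 CPM in KO1 against 36.3, 42.8 and 59.7 CPM in WT cultures of batch 1. KO was lower than WT in batch 2 and higher in batch 1, each time with 1 culture on one side.

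Relative to RNA, 55 of 74 of these genes carried more footprints than the typical gene. Footprints over total RNA, averaged over batches and genotypes, was called higher for 42 and lower for 12 of 74 genes (background 71.4%, with 34.7% higher and 36.7% lower). The median was 0.39 on the log2 scale, a fold of 1.31, against -0.01 over all genes. Small subunit genes had a median of 0.49 and large subunit genes 0.33. Nuclear oxidative phosphorylation genes stood at 0.47, and cytosolic ribosomal protein genes at -1.07, with 72 of 76 called lower. The RNA and footprint tables may count different regions, so the ratio of one gene to another is a description.

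The genes spanned a 9.90-fold range in this ratio. Mrpl52 stood highest, at 1.75 ± 0.22 (SE; a fold of 3.37), with footprints of 33.0 ± 12.4 CPM in KO and 33.6 ± 20.7 CPM in WT cultures on RNA of 9.92 ± 2.69 and 9.70 ± 4.39 CPM. Mrpl22, whose protein lines the exit tunnel, followed at 1.46 ± 0.15, then Mrps6 and Mrpl38 at 1.31, Mrps18c at 1.24 and Mrps5 at 1.05. Mrpl30 stood alone at the low end, at -1.55 ± 0.19 (a fold of 0.341). Its footprints were 8.29, 13.2, 22.4, 13.7, 9.32 and 0 CPM in KO cultures 1 to 6, against 7.79, 3.30, 17.8, 16.9, 23.5 and 0 CPM in WT cultures 1 to 6. Its RNA spanned 28.6 to 42.9 CPM in KO cultures and 29.6 to 50.6 CPM in WT cultures. The RNA value was the higher one in every culture but WT6, where a footprint count of 0 allows up to 82.2 CPM. Mrpl49 (-0.74), Mrpl50 (-0.71), Mrps24 (-0.69), Mrpl18 (-0.63), Mrpl43 (-0.58) and Mrpl20 (-0.57) came next. The mean ratio of Mrps12, left out of the test, was also among the 6 lowest.

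The paralogs Mrps18a, Mrps18b and Mrps18c derive from 1 bacterial gene and sit at different places in the mitochondrial ribosome. In the split by origin used here, only Mrps18c was counted as having a bacterial counterpart, and Mrps18a and Mrps18b as mitochondria-specific. Their RNA was 36.2 ± 6.05, 21.4 ± 3.8 and 28.8 ± 6.11 CPM in KO cultures, against 38.7 ± 8.58, 21.1 ± 4.26 and 32.3 ± 9.49 CPM in WT cultures. Their footprint to RNA values differed in size, at 0.20 ± 0.12 for Mrps18a, 0.72 ± 0.14 for Mrps18b and 1.24 ± 0.11 for Mrps18c. In total RNA all 3 were called higher in batch 3 over batch 1, by 0.56, 0.52 and 0.53. Of the genes in which human mitochondrial disease variants are known, (Mrps2, Mrps7, Mrps14, Mrps16, Mrps22, Mrps34, Mrpl3, Mrpl12, Mrpl24 and Mrpl44), none was called for KO over WT in total RNA, footprints or efficiency over all 12 cultures. For 3 of these not described above, RNA in KO against WT cultures was 16.4 ± 2.67 against 16.8 ± 4.99 CPM for Mrps22, 38.6 ± 5.24 against 42.2 ± 5.58 CPM for Mrpl3, and 32.2 ± 6.41 against 36.3 ± 6.26 CPM for Mrpl44.

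**Figure D5:**
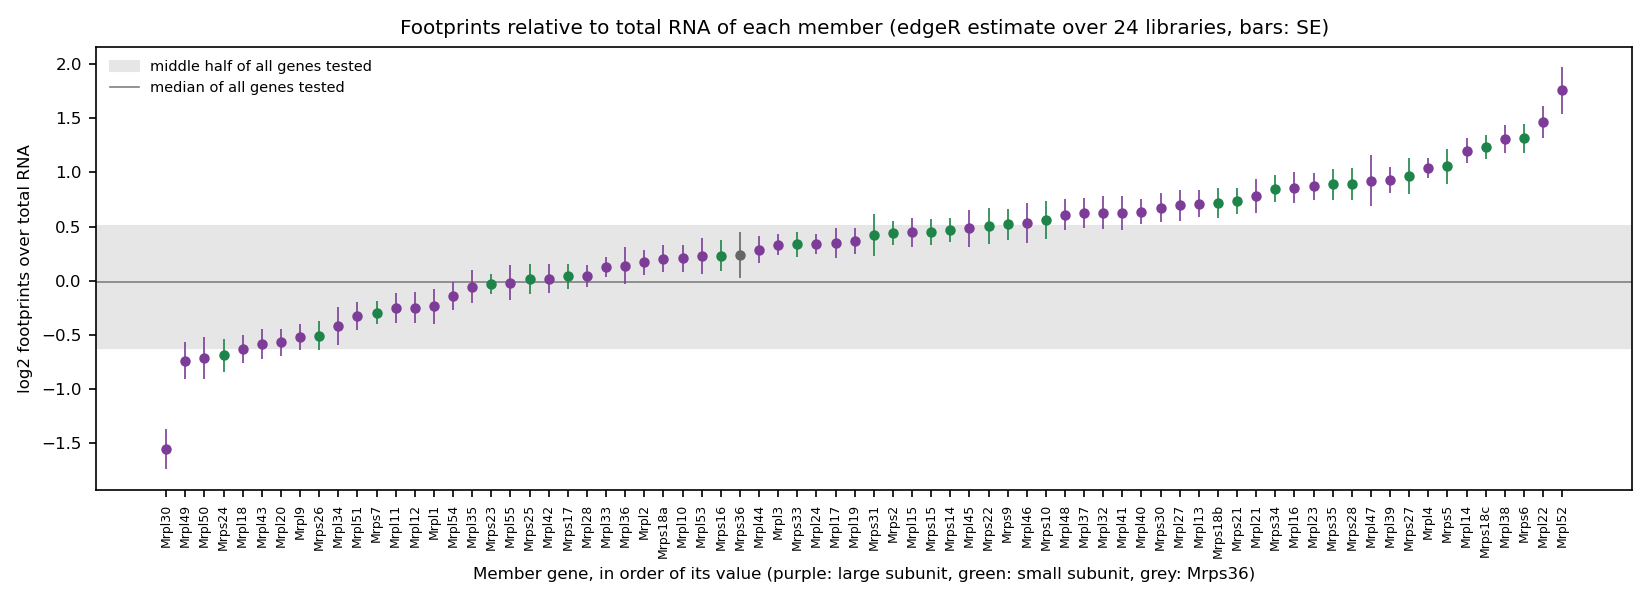
Log2 footprints over total RNA (y axis) for each of the 74 genes tested (x axis, in order of value), as edgeR estimates over 24 libraries with the SE as bars, coloured by subunit. The grey band spans the first to the third quartile of all genes tested and the line is their median (-0.01). Mrpl30 lies below all others at -1.55 and Mrpl52 highest at 1.75.

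Among the 67 genes with a promoter, the motif counts were split by the batch 3 over batch 1 call, as a description. The ETS core occurred before 12 of 43 called genes (27.9%) and 5 of 24 others (20.8%). The short NRF1 form occurred before 6 of 43 (14.0%) and 2 of 24 (8.33%), and the YY1 core before 1 of 43 (2.33%) and 3 of 24 (12.5%). No difference between these shares was tested.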

How the data were processed

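The authors deposited a table of raw counts, by gene symbol, for each library. By their names, total RNA tables are marked strict and footprint tables cover coding sequence; genes absent from a footprint table were taken as 0. Per the submitters' processing notes, the tools include HTSeq, DESeq2, DESeq, Cufflinks 2.2.1, TopHat2 2.1.0, Trim Galore and Bowtie 1.1.2, on build mm10, with no role given; nothing states the strand use or the annotation. Per the file headers, the authors also deposited tables with a log2 fold change, a score (test statistic), and p-values from DESeq2, whose direction was not stated. The 5 summary lines of each count file were left out; reads outside any feature (3.97% to 9.47% of footprint and 4.32% to 19.2% of RNA entries) and without a unique alignment (45.6% to 80.1% and 27.8% to 51.2%) were thus not used.

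Counts were tested with edgeR 4.0.16 (R 4.3.3): TMM scaling, a minimum count of 10 with 6 libraries a group, robust quasi-likelihood fits, Benjamini-Hochberg adjustment over all genes tested, and a threshold of 0.05. The model held genotype and batch in RNA and in footprints, and library kind by batch plus the interaction with genotype for efficiency. SEs were taken as the estimate over the root of F. Log2 CPM used a prior count of 2. The fits were tested on simulated counts with known changes. DESeq2 1.42.0, limma 3.58.1, other scalings and filters, a replicate block, batches alone and left-out cultures were tried. Footprint and RNA libraries of a culture carry the same number, which makes them pairs by label. The correlation of their deviations ran from 0.00548 to 0.559. The main fits of efficiency and of footprints over RNA took both libraries of a culture as independent. The replicate block changed no KO over WT call. In the main fits, KO and WT cultures of the same number were not paired. Their correlations with batch removed were -0.729 to 0.412. Removing batch lowers such values between cultures of a batch, so they cannot decide whether the number pairs cultures. By label, KO2 and KO3 are in another batch than WT2 and WT3.

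The genes, the lists and the motifs were chosen with earlier results of these data known. Named genes were those with the 6 lowest p in each KO over WT test, the 6 highest and 6 lowest by RNA and by ratio, the 5 highest and lowest called in each batch contrast, the Mrps18 paralogs, human disease genes, and the 2 lowest p in each other list. Share intervals are 95% exact Clopper-Pearson intervals.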

Additional observations from a re-analysis of the deposited data

Results flagged for a closer look

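In groups of 6 cultures, the highest or lowest value was set against the rest by its gap to the nearest other over the group's range. Of 224 such groups, over the 55 named genes in RNA and footprints and the summed shares, 28 had 1 culture standing apart, and chance gives about 1 in 20 for 6 like samples. These groups pool 3 batches and, in footprints, libraries of very unequal depth, so that share is no measure of how many to look for here. No explanation was weighed.

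In total RNA the high values were Mrpl2 in KO5 (35.4 CPM), Mrps5 in KO5 (18.2 CPM), Mrpl24 in KO1 (74.3 CPM), Mrpl44, Mrpl49 and Mrpl9 in WT5 (48.5, 36.4 and 58.6 CPM), and Mrpl45 and Mrpl52 in WT4 (74.1 and 18.4 CPM). The low value was Mrps2 in KO1 (12.3 CPM, against 17.8 to 20.6 CPM in the other KO cultures).

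In footprints, KO5 was high for Mrpl16 (60.6 CPM), Mrpl21 (60.6 CPM), Mrpl39 (93.2 CPM), Mrpl51 (65.2 CPM), Mrpl53 (46.6 CPM) and Mrps10 (46.6 CPM). KO6 was high for Mrpl28 (108 CPM), Mrps17 (75.9 CPM) and Mrps18a (75.9 CPM) and at 0 for Mrpl46, and KO1 was high for Mrps27 (36.5 CPM). WT5 was high for Mrpl28 (127 CPM). WT6 was high for Mrpl27 (164 CPM), Mrpl42 (82.2 CPM), Mrpl49 (54.8 CPM) and Mrps5 (110 CPM), low for Mrpl33 (27.4 CPM) and at 0 for Mrpl40 and Mrps10. In WT6, 3 counts are worth 82.2 CPM, and in KO6 they are worth 32.5 CPM.

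The KO over WT difference of Mrpl45 in footprints differed between batches by the interaction test (edgeR adjusted p = 0.0209).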

How the results depend on the processing

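For KO over WT, the values that moved included these. In the 4 deepest cultures edgeR called 9 genes in RNA and 7 in footprints, with an RNA median of -0.21. The RNA median was 0.035 in batch 1 alone and -0.18 in batch 2 alone. Footprints gave 1 call without batch 1, and a median of 0.10 in batch 3 alone. The efficiency median was 0.060 with a minimum count of 50, 0.082 without batch 2 and 0.21 in batch 3 alone. Single genes turned sign, none of them past the threshold: Mrps15 RNA with no batch term (0.081), Mrpl52 footprints (0.080), Mrpl49 footprints (0.17) and Mrpl49 efficiency (0.24) in batch 1 alone, and Mrpl24 efficiency in batch 3 alone (0.41). With the replicate block, the count called stayed at 0 in RNA, footprints and efficiency, with medians of -0.10, -0.09 and -0.03, and 53 genes were called for footprints over RNA. For batches, batch 3 over batch 2 gave 6 calls in footprints and an efficiency median of -0.17 with no filter. With KO6 and WT6 left out together, chosen after seeing the data, batch 3 over batch 1 and over batch 2 had RNA medians of 0.52 and 0.45, and batch 3 over batch 2 had 4 calls in footprints and 3 in efficiency. The cause was not tested. Except for the 4 deepest cultures, described above, shares of all genes called in these fits are not given here. Their counts are thus not a result about these genes alone.

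Leaving out 1 culture at a time gave these ranges of calls: KO over WT footprints 0 to 1; batch 2 over batch 1, 4 to 13 in RNA, 3 to 9 in footprints and 1 to 7 in efficiency; batch 3 over batch 1, 6 to 14 in footprints and 0 to 2 in efficiency; batch 3 over batch 2, 3 to 13 in footprints and 1 to 6 in efficiency. The medians ran from -0.13 to 0.057 for KO over WT efficiency, -0.061 to 0.19 and -0.16 to 0.042 for efficiency in batch 3 over batch 1 and over batch 2, and 0.26 to 0.43 for footprints over RNA. The calls in RNA of batch 3 over batch 1 ran from 42 to 54. Shares of all genes called with a culture left out are not given here, so these counts are not a result about these genes alone. Of 420 values of named genes in batch contrasts of footprints 79 kept their direction but missed the threshold, and of 480 in RNA 96 did. In footprints the depth of batch 3 limits what can be seen.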

Other observations

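Cytosolic ribosomal protein genes, which build the ribosomes that make the mitochondrial ribosomal proteins, had another batch pattern. In footprints of batch 3 over batch 1, 59 of 76 were called higher and 1 lower, with a median of 0.87 on the log2 scale, against 10 higher and 5 lower of 78 and a median of 0.06 in total RNA. Nuclear genes of oxidative phosphorylation had 29 of 74 called higher in footprints, with a median of 0.50, and 49 of 74 in total RNA, with a median of 0.45. The lowest p of the oxidative phosphorylation genes in total RNA belonged to Ndufs8, a subunit of complex I, at 1.12 ± 0.13 (edgeR adjusted p = 1.55e-05).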
